A study of Homo sapiens with 3 samples.

Results

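Fatty acid oxidation and the carnitine shuttle were read through 36 genes in RNA-seq of MCF10A cells, a breast epithelial line of human origin that is immortalized and does not form tumours. The genes were chosen by function, from carnitine import to the last thiolase, and are 36 of the 62754 genes in the deposited table, all found by Ensembl identifier in GENCODE release 44. All 3 samples are of 1 condition. The cells carried the empty Retro-X Tet-One vector with no gene of interest, were selected with puromycin, received no doxycycline and no other treatment, and were harvested at 27 h after seeding. The labels place all 3 in batch 1 and do not say whether they came from separate cultures, so that the SD given here is the spread between samples, which may be technical. No group can be compared with another, and with 3 replicates an exact sign-flip permutation test cannot give a p below 0.25, so levels are compared by whether a difference holds in every replicate and exceeds its own SD.

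Long-chain fatty acids are joined to coenzyme A in the cytosol and cannot cross the inner mitochondrial membrane in that form. CPT1 on the outer membrane transfers them to carnitine, a carrier brings the acylcarnitines into the matrix, and CPT2 restores the acyl-CoA. Each turn of mitochondrial beta oxidation then runs through a dehydrogenation, a hydration, a further dehydrogenation and a thiolysis, and its first electrons pass through ETF and ETF dehydrogenase to ubiquinone. Peroxisomes shorten very long and branched chains with enzymes of their own, of which the first makes hydrogen peroxide.

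The values are TPM, the reads of a gene divided by its length and scaled to 1000000 in each replicate. The replicates held 15273329, 15446347 and 11166546 reads, recovered from TPM and gene length with the smallest step taken as 1 read. All 6 markers of basal mammary epithelium were at or above 1 TPM, led by KRT5 at a mean of 6612 TPM. Of 5 luminal markers, 3 were, led by KRT18. The marker lists for hepatocytes, striated muscle, adipocytes and immune cells, 11 genes in all, had none at or above 1 TPM. Of the 2 endothelial markers, PECAM1 was at a mean of 1.77 TPM and VWF was below 1 TPM. Replicate 3 lay below replicate 1 for most genes, with a median log2 ratio of -0.25 over those whose mean reached 10 TPM and -0.22 over the 27 members in that range, of which 26 were lower in replicate 3.

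At a mean of at least 1 TPM, the level that the study's methods use to count an enzyme as expressed, 30 of the 36 genes (83.3%) were expressed. The share was 56.7% over the 20046 protein-coding genes and 24.9% over all genes. The 30 genes were above 1 TPM in each replicate, and the other 6 were below it in each replicate. Thus 0 members had replicates on both sides of 1 TPM, against 2.84% of protein-coding genes. Of the 30, 6 had means of at least 100 TPM, 21 lay between 10 and 100 TPM, and 3 lay below 10 TPM. The median over the 36 genes was 29.1 TPM. The median of the expressed 30 was 38.2 TPM, beside 24.9 TPM for the 11360 protein-coding genes at or above 1 TPM. Together the 36 genes held 2071, 1967 and 1797 TPM in replicates 1, 2 and 3.

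**Figure D1:**
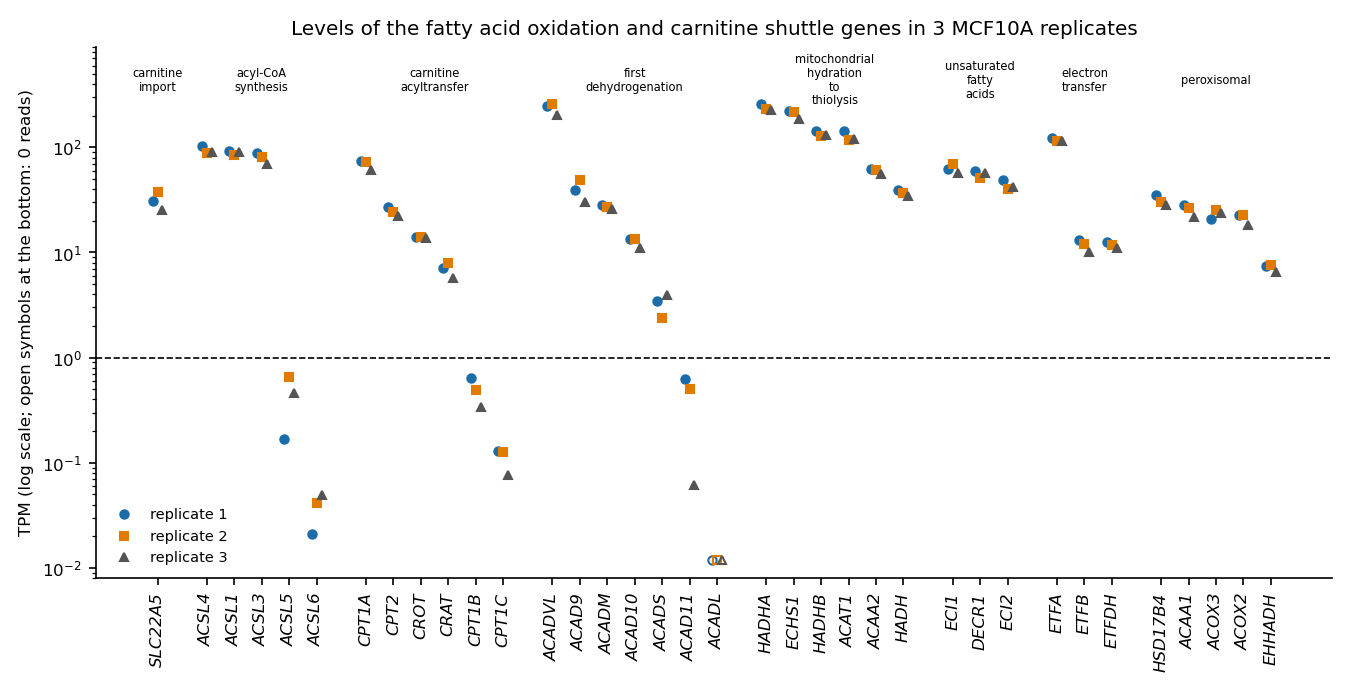
TPM of the 36 genes in each of the 3 replicates on a log scale, grouped by role and ordered within a role by the mean; the dashed line marks 1 TPM and open symbols stand for 0 reads. The 30 expressed genes sit above the line in every replicate, and ACSL5, ACSL6, CPT1B, CPT1C, ACAD11 and ACADL sit below it in every replicate.

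Levels of different genes can be compared only per length, and for these genes the length mattered. The deposited values return whole reads when the length of a gene is that of its longest annotated transcript. For 8 of the 36 genes (22.2%) this was over 2 times the length of the canonical transcript, against 6.66% of protein-coding genes at or above 1 TPM. The 8 genes are SLC22A5, ACADM, HADH, ECI2, ETFB, ETFDH, HSD17B4 and ACAA1. In 6 of them the longest transcript is annotated as one with a retained intron. The largest ratio was that of HSD17B4. Its longest transcript, of 21 exons, has a length of 11887, counted with 1 base less for each exon. The canonical transcript, of 24 exons, has 2628 bases counted in full. With canonical lengths for every gene, the mean of HSD17B4 was 115 ± 11.7 TPM in place of 31.0 ± 3.44 TPM (SD, n = 3 each). HADH was at 112 ± 5.11 TPM in place of 36.9 ± 2.10 TPM (SD, n = 3 each). Canonical lengths shifted the genes whose mean reached 10 TPM by a median of -0.29 on the log2 scale, and over the 27 members in that range it was 0.23. The canonical-length values divide all reads of a gene by the shorter length, including any reads outside the canonical transcript. Where such reads are many, these values and the ratios taken from them may be too high for that gene. Which transcripts the cells used was not measured, so the text gives canonical-length values for the 8 genes above and for the main ratios and shares. For the other 28 members the ratio of both lengths was lower, and values are as deposited unless stated. Among them the means with canonical lengths were 57.8 TPM for ACAD9, 152 TPM for ACAT1, 33.6 TPM for CPT2, 98.9 TPM for ACSL3 and 9.06 TPM for CRAT.

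**Figure D2:**
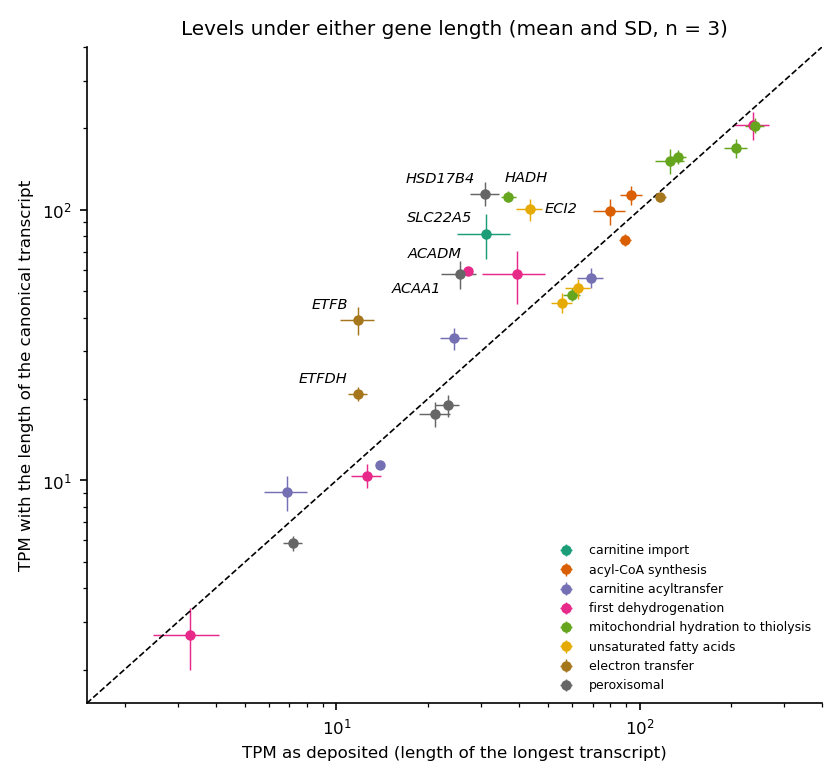
Mean TPM of the 30 expressed genes as deposited (x axis) and recomputed from the same reads with the length of the canonical transcript (y axis), both on log scales, with bars for the SD of 3 replicates, colours for the role and a dashed line of equality. The 8 named genes lie above the line, HSD17B4 the farthest at 31.0 against 115 TPM.

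Carnitine enters the cell through SLC22A5, also known as OCTN2, on chromosome 5. It was measured at 31.1, 37.6 and 25.1 TPM in replicates 1, 2 and 3, and at 80.4, 97.2 and 66.3 TPM with the canonical length. Replicate 2 was the highest under both. Carnitine can also be made from trimethyllysine, and of the enzymes of that synthesis ALDH9A1 was at 104, 86.7 and 93.3 TPM, while BBOX1, the last enzyme, had 7, 2 and 0 reads (0.656, 0.182 and 0 TPM). BBOX1 and the carnitine carrier SLC25A20, at 20.4, 22.4 and 20.04 TPM, are named after their values were seen.

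Of the 5 long-chain acyl-CoA synthetases, which activate fatty acids with coenzyme A, ACSL4, ACSL1 and ACSL3 were expressed and ACSL5 and ACSL6 were not. ACSL4, which favours polyunsaturated fatty acids, was measured at 103, 88.6 and 90.3 TPM. ACSL1 was measured at 92.9, 85.1 and 91.0 TPM, and ACSL3, an enzyme of the endoplasmic reticulum and lipid droplets, at 89.0, 81.3 and 69.6 TPM. ACSL4 and ACSL1 were not apart, with a log2 difference of 0.07 ± 0.08 (SD, n = 3) that turned sign in replicate 3. With canonical lengths ACSL4 was the higher in every replicate, by 0.55 ± 0.08, and ACSL1 was the lowest of the 3 in every replicate. ACSL4 held 35.6 ± 0.829% of the TPM of the 5 genes (SD, n = 3) as deposited and 39.1 ± 0.978% with canonical lengths. ACSL5, known from intestine and liver, had 3, 12 and 7 reads, and ACSL6, known from brain, had 1, 2 and 2 reads, and another gene of that strand covers 31.2% of its canonical transcript.

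The 3 CPT1 genes encode the enzyme that malonyl-CoA inhibits, and CPT1A, the liver form that most tissues use, was nearly alone. It was measured at 73.7, 72.1 and 61.1 TPM (ENSG00000110090, chromosome 11 of hg38 from 68754620 to 68844410). CPT1C, known from brain, had 2, 2 and 1 reads, at 0.129, 0.126 and 0.0758 TPM. CPT1B, the muscle form, had 9, 7 and 4 reads, at 0.646, 0.489 and 0.337 TPM. CPT1A thus held 99.1 ± 0.184% of CPT1 TPM (SD, n = 3) as deposited and 99.1 ± 0.188% with canonical lengths. The reading of CPT1B is uncertain, because 98.1% of its canonical transcript is shared with the readthrough gene CHKB-CPT1B, which was itself at 1 read in each replicate. CPT2 was measured at 27.1, 24.2 and 22.0 TPM, below CPT1A in every replicate, by 2.82-fold on average as deposited and 1.67-fold with canonical lengths. Of its canonical transcript, 37.7% lies opposite to exons of genes on the other strand, among them CZIB. The transferases for short and medium chains were lower. CRAT, which acts on acetyl groups, was measured at 7.07, 7.87 and 5.71 TPM, and CROT, the peroxisomal form, at 14.2, 14.02 and 13.7 TPM. CROT was above CRAT in every replicate under both lengths.

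The acyl-CoA dehydrogenases take the first electrons, each from chains of a certain length, and 5 of the 7 genes were expressed. ACADVL, for very long chains, was measured at 246, 260 and 202 TPM and was the highest in every replicate. It held 74.0 ± 0.347% of the TPM of the 7 genes (SD, n = 3) as deposited and 61.1 ± 0.539% with canonical lengths. ACADM, for medium chains, was measured at 28.0, 27.1 and 26.2 TPM, or 61.3, 59.3 and 58.5 TPM with the canonical length. ACADS, for short chains, was at 3.49, 2.40 and 3.98 TPM from 34, 24 and 33 reads, the lowest of the 30 expressed genes. ACAD9, which also serves in the assembly of respiratory complex I, was measured at 38.98, 48.9 and 30.4 TPM. It was above ACADM in every replicate as deposited, but only in replicate 2 with canonical lengths. ACAD10 was lower than both at 13.4, 13.4 and 11.0 TPM.

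The long-chain form ACADL (ENSG00000115361, chromosome 2 from 210187126 to 210225447) had 0 reads in all 3 replicates. With 3 reads taken as the limit of a count of 0, this allows up to 0.170, 0.166 and 0.200 TPM, and the limit covers counting error only. No part of its canonical transcript is shared on the same strand. ACAD11 had 12, 10 and 1 reads, at 0.621, 0.504 and 0.0608 TPM, and so few reads leave its level uncertain.

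The mitochondrial enzymes from hydration to thiolysis were the highest group by summed level, at 869, 792 and 754 TPM in replicates 1, 2 and 3, and all 6 were expressed. HADHA and HADHB encode the subunits of the trifunctional protein, which carries out the last 3 steps on long chains at the inner membrane and holds both subunits in equal number. HADHA (ENSG00000084754, chromosome 2 from 26190635 to 26244672) was measured at 260, 233 and 228 TPM and was above 97.2% of protein-coding genes by its mean. HADHB (ENSG00000138029, chromosome 2 from 26243170 to 26290465) was measured at 143, 127 and 131 TPM. The log2 difference was 0.84 ± 0.04 (SD, n = 3), or 1.79-fold, and held in every replicate. With canonical lengths it was 0.38 ± 0.04, or 1.30-fold, and HADHA remained the higher in every replicate. HADHA and ACADVL were not apart, with a difference of 0.03 ± 0.17 on the log2 scale (SD, n = 3).

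For shorter chains, the hydratase ECHS1 was measured at 222, 216 and 187 TPM. The dehydrogenase HADH followed with 38.9, 37.1 and 34.7 TPM, or 117, 112 and 107 TPM with its canonical length. The thiolase ACAA2 was at 62.7, 61.0 and 55.3 TPM, below HADHB in every replicate under both lengths. ACAT1, which splits acetoacetyl-CoA and also serves in ketone and isoleucine metabolism, was measured at 143, 118 and 119 TPM. HADHB exceeded it by 0.09 ± 0.08 on the log2 scale (SD, n = 3) as deposited, and the order was not the same in every replicate with canonical lengths. Between 0 and 2 reads fell on each of the 5 annotated pseudogenes that carry the name of a member.

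HADHA and HADHB lie head to head, and the RefSeq starts of both genes on GRCh38.p14 are 307 bases apart. In GENCODE the genes overlap, since HADHB begins at 26243170 and HADHA reaches 26244672. The 250 bases before the start of HADHA and those before HADHB share 194 bases. This stretch is shown because the RefSeq starts of both subunits flank it, and ACADL because it had no reads. Of the other windows, ACSL4 has the highest mean of its family, not apart from ACSL1 as deposited. ACSL5 is a nearly unread gene of the same family. The windows are chr2:26244633-26244882 (minus strand) for HADHA, chr2:210225448-210225697 (minus) for ACADL, chrX:109733258-109733507 (minus) for ACSL4 and chr10:112375018-112375267 (plus) for ACSL5. Capitals mark each CG dinucleotide.
HADHA: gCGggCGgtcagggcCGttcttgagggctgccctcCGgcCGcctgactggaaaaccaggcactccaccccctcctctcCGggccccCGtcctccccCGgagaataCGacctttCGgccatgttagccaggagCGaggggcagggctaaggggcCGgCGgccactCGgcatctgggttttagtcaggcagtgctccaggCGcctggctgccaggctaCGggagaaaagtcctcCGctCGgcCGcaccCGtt
ACADL: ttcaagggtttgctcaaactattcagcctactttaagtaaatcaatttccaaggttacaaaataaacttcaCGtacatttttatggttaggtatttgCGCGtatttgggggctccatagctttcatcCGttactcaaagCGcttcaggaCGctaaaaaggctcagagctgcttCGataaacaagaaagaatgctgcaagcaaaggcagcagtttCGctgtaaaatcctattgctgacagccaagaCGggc
ACSL4: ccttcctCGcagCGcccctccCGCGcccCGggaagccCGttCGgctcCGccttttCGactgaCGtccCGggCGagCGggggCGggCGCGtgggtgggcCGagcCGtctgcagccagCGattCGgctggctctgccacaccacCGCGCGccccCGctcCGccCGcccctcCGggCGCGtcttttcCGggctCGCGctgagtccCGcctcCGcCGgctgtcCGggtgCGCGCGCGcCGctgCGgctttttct
ACSL5: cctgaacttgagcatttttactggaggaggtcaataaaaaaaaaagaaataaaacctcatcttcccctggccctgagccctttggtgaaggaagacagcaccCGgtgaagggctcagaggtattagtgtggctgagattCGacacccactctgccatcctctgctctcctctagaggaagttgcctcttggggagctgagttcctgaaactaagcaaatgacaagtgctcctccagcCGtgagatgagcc

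These 250 bases hold 20 CG dinucleotides for HADHA, 9 for ACADL, 42 for ACSL4 and 3 for ACSL5. RefSeq windows were found for 28 of the 36 genes. By the window with the most CG dinucleotides of each gene, the median was 25 in the 24 expressed genes, with a range from 7 to 42. It was 12 over all 27305 genes with a window, taken without regard to gene type or expression. Since the members have more windows for each gene, taking the highest window favours a higher count for them. The same background is used for the motifs below. Whether the members differ from other expressed protein-coding genes in these counts was not tested. The 4 genes below 1 TPM had from 3 to 31, the highest in ACSL6, so that expressed and silent genes overlapped. CPT1A had 7 in the only window listed for it. The windows begin at annotated starts, and the starts used in these cells were not measured. In windows of 300 bases that include the first 50 after the start, the Sp1 box GGGCGG was found on either strand in 24 of the 28 genes (85.7%), against 48.3% of all genes with a window. The members have more windows for each gene, and by window the shares were 68.1% of 47 and 44.95% of 35116. The CCAAT box was found in 32.1% of the 28 genes against 39.7% of all genes, and TATAAA in 7.14% against 13.99%. The direct repeat of PPAR and RXR, AGGTCA and again AGGTCA with 1 base N between them, was found in 0 of the 28 genes and in 0.0293% of all genes, and the ERR element TNAAGGTCA in 0 and 1.17%. A match of letters is a description and not a binding site.

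Unsaturated fatty acids need helper enzymes that move or remove double bonds, and all 3 were expressed. The isomerase ECI1 was measured at 62.7, 68.8 and 56.7 TPM, and the reductase DECR1 at 59.3, 50.6 and 56.8 TPM, a difference smaller than its spread. ECI2, an isomerase of mitochondria and peroxisomes, was at 48.5, 40.4 and 41.6 TPM. It was below DECR1 in every replicate as deposited and above it in every replicate with canonical lengths, where it was at 111, 92.6 and 97.5 TPM.

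The electron transfer flavoprotein is a dimer of ETFA and ETFB. ETFA was measured at 123, 114 and 115 TPM and ETFB at 13.1, 12.1 and 10.1 TPM, or 43.3, 40.1 and 34.2 TPM with its canonical length. The ratio of both was 9.996-fold as deposited (log2 3.32 ± 0.16, SD, n = 3) and 2.85-fold with canonical lengths (1.51 ± 0.16). ETFB has 872 bases in its canonical transcript and 3546 in its longest, and a second annotated gene of that strand covers 38.6% of the canonical transcript, and its part in the level of ETFB was not tested. ETFDH, which hands the electrons to ubiquinone, was at 12.6, 11.7 and 10.9 TPM, or 22.3, 20.7 and 19.8 TPM with its canonical length. ETFA was the highest of the 3 in every replicate under both lengths.

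The 5 peroxisomal enzymes were all expressed. Among the oxidases, ACOX2, which acts on branched chains and bile acid precursors, was measured at 22.6, 22.6 and 18.4 TPM and ACOX3, another branched-chain oxidase, at 21.0, 25.2 and 23.7 TPM. They were not apart, with ACOX3 the higher in 2 of 3 replicates. The bifunctional enzyme HSD17B4 was measured at 34.8, 30.1 and 28.1 TPM, or 128, 110 and 106 TPM with its canonical length. The other bifunctional enzyme, EHHADH, was at 7.40, 7.59 and 6.58 TPM, below HSD17B4 in every replicate, by 4.30-fold as deposited and 19.5-fold with canonical lengths. The thiolase ACAA1 was at 28.2, 26.4 and 21.8 TPM, or 63.6, 59.6 and 50.3 TPM with its canonical length, and 24.0% of its canonical transcript lies opposite to exons on the other strand.

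To compare mitochondria and peroxisomes at the same step, genes were paired by reaction. For hydration with dehydrogenation, HADHA was 6.29-fold above the sum of HSD17B4 and EHHADH as deposited, with log2 differences of 2.62, 2.63 and 2.71 in replicates 1, 2 and 3. With canonical lengths the difference was 1.70-fold, at 0.71, 0.76 and 0.82. For thiolysis, the sum of HADHB and ACAA2 was 7.63-fold above ACAA1, with log2 differences of 2.87, 2.83 and 3.10, and with canonical lengths 3.58-fold, at 1.78, 1.73 and 2.01. SCP2, a peroxisomal gene that also encodes a thiolase, was not in this pair and is named after its values were seen. It was at 34.6, 32.8 and 31.6 TPM, above ACAA1 in every replicate as deposited. With canonical lengths it was at 52.8, 50.2 and 49.4 TPM, below ACAA1. Counting it would lower the thiolysis ratio, and ACAT1 was left out on the mitochondrial side. In the first pair the hydratase ECHS1 and the dehydrogenase HADH were left out on the mitochondrial side, and counting them would raise that ratio. Neither ratio thus covers all genes of its step. For the genes paired, the mitochondrial side was the higher in every replicate under both lengths, and the size of the difference depended on the length. The levels are of RNA and give no rate of either pathway.

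**Figure D3:**
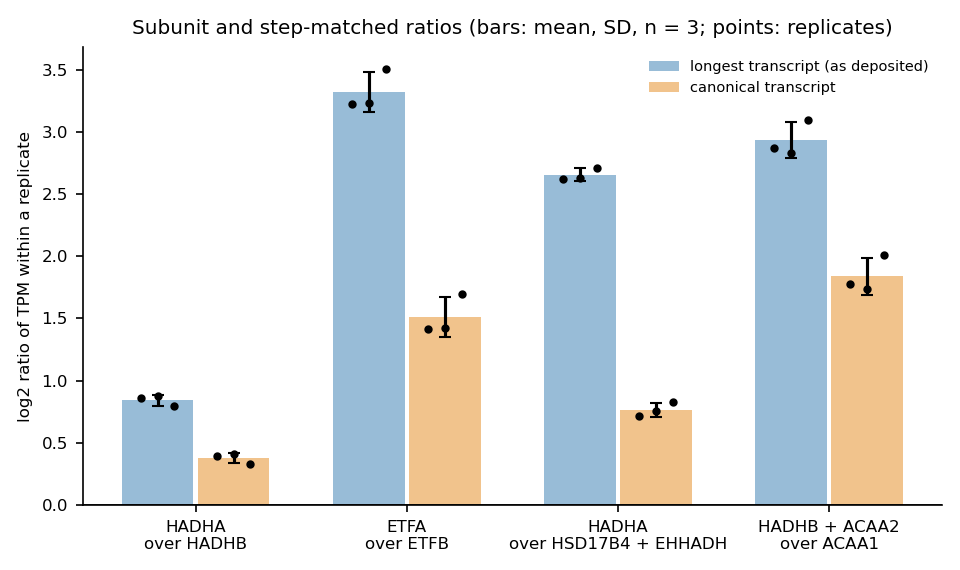
Log2 ratios of TPM within each replicate for the subunits HADHA over HADHB and ETFA over ETFB, and for the paired mitochondrial over peroxisomal genes of a step. SCP2, ACAT1, ECHS1 and HADH are not in these pairs. Bars are means with the SD of 3 replicates, points are the replicates, and colours give the length used. All ratios are above 0 in every replicate, and HADHA over HSD17B4 and EHHADH falls from 2.65 to 0.77 with canonical lengths.

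Ordered by mean TPM, the 30 expressed genes form 29 pairs of neighbours. Of these, 14 were apart, with the same sign in every replicate and a mean difference above its SD, and 15 were not. This rule is a description and not a test. Its rate of passing without a real difference was not estimated, and the order rests on the same means. With canonical lengths 12 were apart. HADHA and ACADVL were at the top and not apart in both orders. ECHS1 came next and was apart from HADHB as deposited, but not with canonical lengths. HSD17B4 moved from below SLC22A5 to just below ACAT1, and ACADS was last in both.

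The genes around the pathway, 53 in 8 lists, had 42 at or above 1 TPM. The highest of each list were DBI, which binds acyl-CoA, at a mean of 481 TPM, ALDH9A1 at 94.7 TPM, ACACA, which makes malonyl-CoA, at 103 TPM and the nuclear receptor RXRA at 84.6 TPM. In the list of peroxisomal import and side-chain enzymes it was ECH1 at 74.4 TPM, with 33.5% of its canonical transcript shared. The thioesterase ACOT7 at 148 TPM and the ketone body enzyme OXCT1 at 93.7 TPM led theirs. In the odd-chain list the highest was MMUT at 23.3 TPM. MMUT led its list by the mean as deposited, but MCEE was higher in replicate 2, at 23.5 against 18.8 TPM, and with canonical lengths PCCB was the highest at 44.05 TPM against 19.0 TPM for MMUT. In the other 7 lists the same gene was the highest in each replicate as deposited and by the mean with canonical lengths. SLC22A16, a carnitine transporter known from testis, had 0 reads in every replicate. ACOT4, a peroxisomal thioesterase, also had 0 reads in every replicate, and another gene covers 68.0% of its canonical transcript.

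To see which genes varied more between replicates than counting error gives, the reads of each gene were compared over the replicates by a chi-square test, after each replicate was centred on the median of genes with at least 10 TPM. Of the 33 members with at least 15 reads in all, 14 were called at an adjusted p under 0.05 (42.4%), against 31.2% of the 15802 genes tested. The members have more reads than the genes tested, with a median of 2506 against 750.5, and the test finds smaller differences where there are more reads. This compares libraries of 1 condition and says nothing of a treatment. After centring, the called genes differed by 1.08-fold to 1.37-fold between their highest and lowest replicate. Replicate 2 was the lowest for 10 of the 14, which were ACSL1, ACSL3, ACSL4, HADHA, HADHB, ACAT1, ECI2, DECR1, ETFA and HSD17B4. It was the highest for SLC22A5, ACADVL and ACAD9, and ACOX3 was lowest in replicate 1. For ACAD9 the centred values were 36.6, 46.4 and 33.9 TPM (chi-square adjusted p = 5.87e-10 with Benjamini-Hochberg over all genes tested), and for ACSL4 they were 97.1, 84.1 and 101 TPM (adjusted p = 1.97e-12). Without replicate 2, 4 members were called, ACSL1, ACSL3, ETFA and ACOX3. CPT1A, at 69.3, 68.5 and 68.2 centred TPM, and ECHS1, at 208, 205 and 209 TPM, were among the 19 that were not called. The median SD of log2(TPM + 1) was 0.14 over the expressed members and 0.19 over all 15640 genes whose mean reached 1 TPM. For a mean of 10 TPM or more it was 0.14 over 27 members and 0.16 over 8809 genes.

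**Figure D4:**
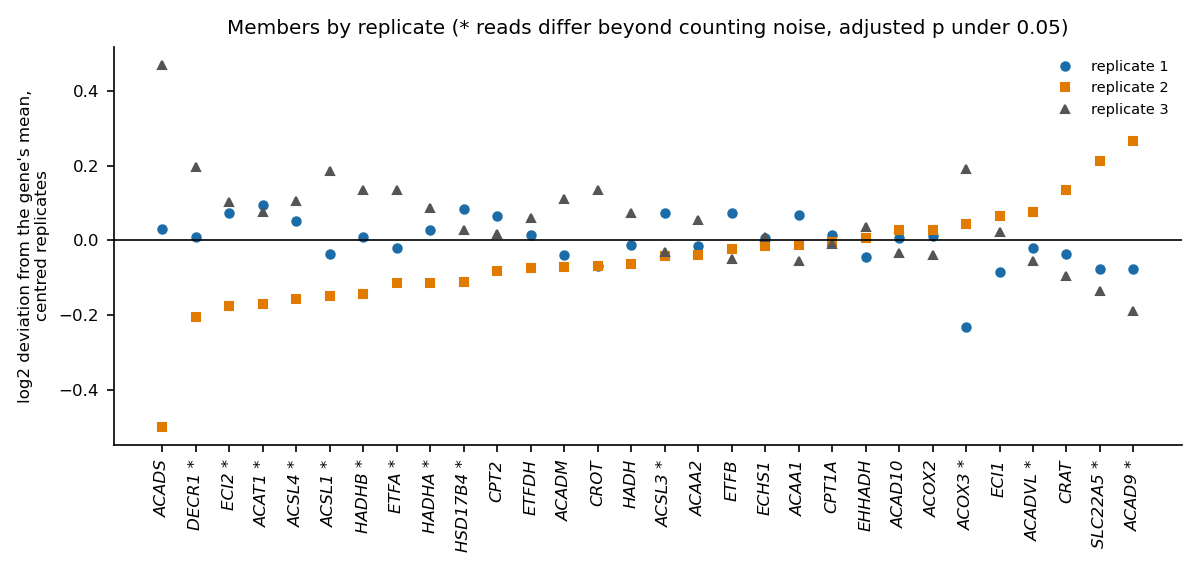
Deviation of each replicate from the mean of the gene on the log2 scale, after centring the replicates, for the members with at least 60 reads in all, ordered by replicate 2; an asterisk marks the 14 genes whose reads differed beyond counting noise at an adjusted p under 0.05. Replicate 2 lies below the others for 10 of the 14 and above them for SLC22A5, ACADVL and ACAD9.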

How the data were processed

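For each of the 3 replicates of the single group, 300 ng of RNA went into a library after removal of rRNA. The authors processed the reads with the Seq2science workflow on hg38 and deposited TPM values, which sum to 1000000 in each replicate. The submitters' processing notes name fastp, STAR and MultiQC. The counter, the annotation release and the strand setting are not given in the sources used here, so reads of overlapping genes on opposite strands may not be told apart. Each column was assigned by the library name that its label gives.

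The deposited TPM were used as they are. Lengths, positions and shared exonic bases were taken from GENCODE release 44, which holds 62700 of the 62754 identifiers. TPM times the length of the longest transcript (with 1 base less for each exon) was divided by its smallest value above 0. This gave reads that were whole within 0.01 for 100% of annotated genes with a value above 0. The tolerance was wider in proportion for genes with many reads. Reads were also divided by canonical lengths and rescaled. Reads were compared between replicates by chi-square, adjusted after Benjamini-Hochberg, over all genes with at least 15 reads. The steps were also run on reads simulated with counting error only and with larger changes than those of the called members. That run does not show how the test does on differences as small as theirs. The members and gene lists were chosen with earlier results of these data known. All 36 members are named, and from each other list the highest gene and those with 0 reads. Items withheld from this text are not reported here. Promoter windows are those of RefSeq (GRCh38.p14). Alternatives covered the pseudocount, the cutoff, how replicates are summarised, whether low values are filtered, scaling, length, shared genes, the read minimum and leaving out each replicate. Intervals and limits cover counting error only. The tools were scipy 1.17.1, pandas 2.3.3 and numpy 2.4.6 under Python 3.11.15, with matplotlib 3.10.9 for plots.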

Additional observations from a re-analysis of the deposited data

How the results depend on the processing

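No paired analysis was possible because there is 1 condition and nothing to pair its 3 replicates with. The count of 30 expressed members was 30 under each of the 10 alternatives tried. At a cutoff of 0.5 TPM, 3 members were called differently between replicates, in place of 0. The median level of 29.1 TPM was 33.4 TPM with protein-coding genes summing to 1000000, 50.0 TPM with canonical lengths and 38.2 TPM over members of at least 1 TPM, which leaves out the low genes by construction. That scaling raised the median of genes with at least 10 TPM by 0.20 on the log2 scale. The median spread of 0.14 was 0.10 with centred replicates and lay between 0.090 and 0.15 when each replicate was left out.

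With canonical lengths the log2 ratios were 0.38 for HADHA over HADHB, 1.51 for ETFA over ETFB, 0.77 for HADHA over HSD17B4 and EHHADH and 1.84 for HADHB and ACAA2 over ACAA1. With the highest of the paired genes of each compartment alone the last 2 were 2.96 and 2.40. The share of ACSL4 was 39.1% and that of ACADVL 61.1% with canonical lengths, and the share of CPT1A was 99.8% with genes of shared exons left out. Without ETFB, which is such a gene, no ratio of ETF subunits can be given. No ratio or share moved by over 1 SD when a replicate was left out, which with 3 replicates it cannot.

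The count of 14 members that differed between replicates was 20 under equal TPM, which is 60.6% of the members tested against 54.3% of all genes tested, and lay between 4, without replicate 2, and 14. Depth limits ACSL5, ACSL6, CPT1B, CPT1C and ACAD11, each with at most 12 reads in a replicate.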
